A study of Homo sapiens with 16 samples.

Results

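The SALL4 siRNA libraries of a knockdown series in embryonic stem cells were set against the libraries of both control siRNAs, across all expressed genes. The members were chosen by their labels: 3 SALL4 siRNA libraries, 2 Luciferase siRNA libraries and 2 Control siRNA libraries, 7 of the 16 libraries in the series. Every group was made of H9, an established line of human embryonic stem cells, here with EGFP placed under the Rex1 promoter, and all were grown without feeder cells on Matrigel in mTeSR1. SALL4 cells received an esiRNA, a commercial pool of short duplexes made by enzymatic digestion of a longer double strand, and were harvested at 48 h. Luciferase cells received an esiRNA against Renilla luciferase, which the cells do not carry, and Control cells a control siRNA whose type the labels do not give. The dose was 30 to 50 nM throughout. The labels give no harvest time for either control, so knockdown and time in culture cannot be told apart in the comparison with them. Of the other 9 libraries, the 3 VRTN siRNA libraries were also harvested at 48 h, and the 3 DSCC1 and 3 SEPHS1 siRNA libraries at 72 h. Replicates are described as independent biological samples.

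SALL4 is a zinc finger transcription factor of the spalt family. In pluripotent cells it binds AT-rich DNA, works beside POU5F1, SOX2 and NANOG, and recruits the NuRD complex, a corepressor that removes histone acetylation. It is switched off in most adult tissues and is expressed again in germ cell tumours and some other cancers.

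Total counts were 22842305 to 28608244 per SALL4 library and 18597262 to 28662389 per control library, and transcripts of the mitochondrial genome took 26.4 to 34.8% and 27.9 to 33.4% of them. Levels below are CPM, a gene's counts relative to its library's total after TMM scaling, which are not corrected for transcript length. They are therefore compared between libraries and not between genes. SALL4 replicate 3 stood apart from the other 2 SALL4 libraries: replicates 1 and 2 correlated at 0.982 over the log2 CPM of 5639 genes, replicate 3 correlated with them at 0.944 to 0.956, and with the controls at 0.951 to 0.964. The control libraries differed more by replicate number than by siRNA: Luciferase 1 correlated with Control 1, and Luciferase 2 with Control 2, at 0.986, while the 2 Luciferase libraries correlated at 0.976 and the 2 Control libraries at 0.978. SALL4 replicates 1 and 2 correlated with replicate 1 of both controls at 0.949 to 0.96, and with replicate 2 at 0.936 to 0.945. For SALL4 replicate 3 the order was reversed, at 0.951 and 0.957 with replicate 1 and 0.964 and 0.961 with replicate 2. No gene was called between Control and Luciferase by edgeR's quasi-likelihood test, DESeq2 or limma-voom, with 211 genes at an unadjusted p under 0.05 in edgeR. All 7 libraries had the profile of pluripotent cells. POU5F1, the central factor of the pluripotent state, stood at 234, 243 and 234 CPM in SALL4 cells and at 188 to 207 CPM in controls, and LIN28A, an RNA-binding protein of stem cells, at 999 to 1117 and 838 to 1055 CPM. Other markers of these cells leaned lower. TDGF1 stood at 182, 213 and 289 CPM in SALL4 cells and at 258 to 337 CPM in controls. L1TD1 stood at 43.7, 58.6 and 68.1 CPM against 65.6 to 69.2 CPM, and DPPA4 at 249, 287 and 295 CPM against 275 to 319 CPM. Their log2 fold changes of -0.42, -0.25 and -0.12 were not called in edgeR (adjusted p = 0.0615, 0.485 and 0.689). SOX2 and NANOG are described below. Most of the defining markers of other cell types were low or at 0 in both groups: TFAP2B of neural crest and CGA of trophoblast had no counts, SOX17 of endoderm reached 1.07 CPM in a single SALL4 library and 0.08 CPM in controls, and TBXT of mesoderm reached 1.77 and 1.46 CPM. Other markers of these layers were read at a few CPM. MIXL1 of mesoderm reached 8.37 CPM in SALL4 cells and 6.14 CPM in controls, TBX6 of mesoderm 4.35 and 7.21 CPM, and FOXA2 of endoderm 3.71 and 6.5 CPM. Higher levels were read for COL1A1, a marker of fibroblasts described below, and NKX2-5 of heart, at 15.9 to 28.8 CPM in SALL4 cells and 13.2 to 18.5 CPM in controls.

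The targeted transcript itself was reduced little. SALL4 (chromosome 20, 51782331 to 51802520, minus strand, GRCh38) stood at 193, 213 and 235 CPM in SALL4 siRNA cells, against 267 and 282 CPM in Luciferase cells and 243 and 303 CPM in Control cells. The groups did not overlap, and the level in SALL4 siRNA cells was 77.9% of the controls. The log2 fold change of -0.36 (SE 0.11) did not pass over all tested genes (adjusted p = 0.0562, quasi-likelihood test of edgeR, Benjamini-Hochberg adjusted, threshold 0.05). It was called without SALL4 replicate 3 (-0.42, adjusted p = 0.0218) and without Control replicate 1 (-0.44, adjusted p = 0.0292). In the other 9 knockdown libraries the transcript lay between 234 and 281 CPM. SEPHS1, a selenophosphate synthetase paralogue and itself a target elsewhere in the series (chromosome 10, 13317424 to 13348298, minus strand), stood at 174, 197 and 249 CPM in SALL4 siRNA cells, against 381 to 440 CPM in the controls, and fell by 0.99 on the log2 scale (SE 0.13, adjusted p = 1.13e-05). That is 50.4% of the controls, a larger fall than that of SALL4. The libraries are named by their labels throughout, and the level of the SALL4 transcript, which was lower without being called, is only a weak check of those labels. In SEPHS1 siRNA cells the SEPHS1 transcript averaged 60.9 CPM. The other 2 siRNA targets of the series were not called: VRTN at a log2 fold change of 0.01 and DSCC1, read at a few CPM, at -0.61. Without SALL4 replicate 3 the value for DSCC1 was -1.34, also not called.

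Within the SALL family the paralogue SALL2 changed most. SALL2 (chromosome 14, 21521081 to 21537216, minus strand) stood at 294, 259 and 359 CPM in SALL4 siRNA cells, against 657 to 811 CPM in controls, so that every SALL4 library held less than any control library. It fell by 1.23 (SE 0.11, adjusted p = 3.74e-09), to 42.6% of the controls. SALL1 had a log2 fold change of 0.36 and SALL3 one of 0.52, neither called (adjusted p = 0.613 and 0.0672). SALL1 was called higher without Luciferase replicate 1 (0.73, adjusted p = 0.00411), and SALL3 without that library (0.63, adjusted p = 0.0349) or without SALL4 replicate 3 (0.61, adjusted p = 0.0274).

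**Figure D1:**
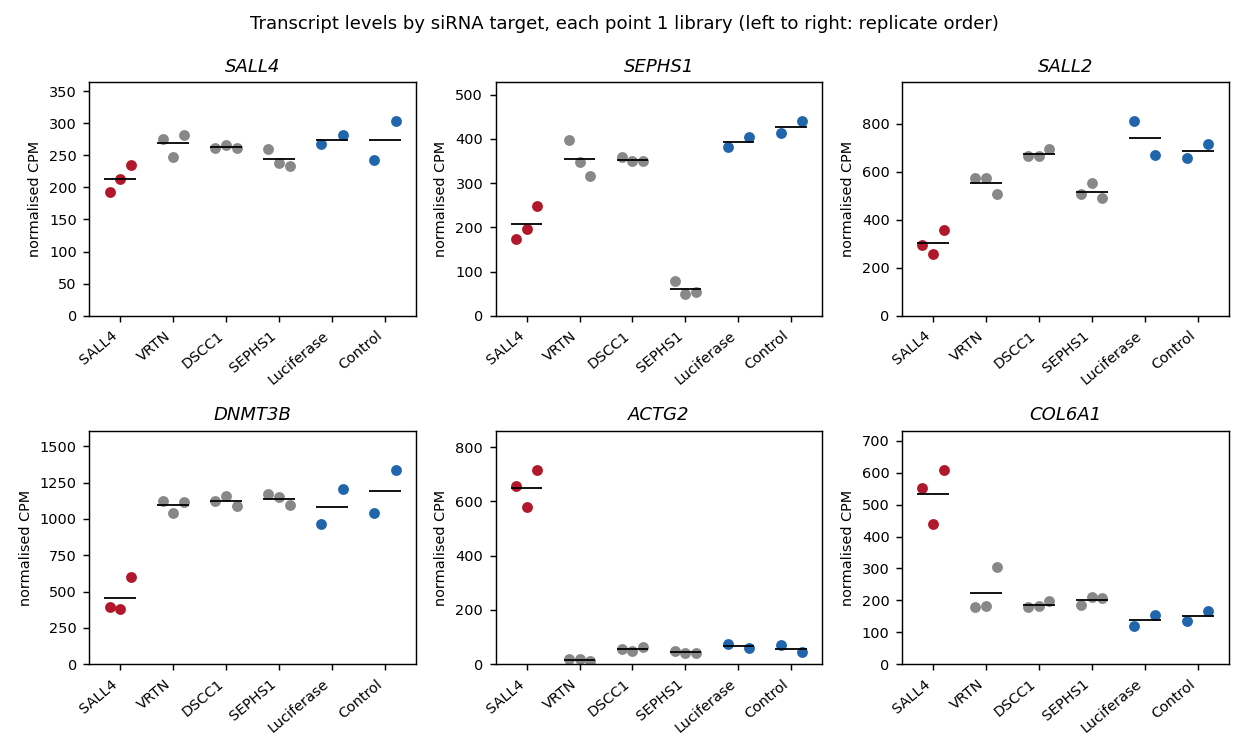
Normalised CPM (vertical axes, from 0) of 6 transcripts in all 16 libraries, grouped by siRNA target; each point is 1 library in replicate order, red for SALL4 siRNA, grey for the other knockdowns, blue for the controls, and each bar is the group mean. SALL4 itself fell short of the threshold, SEPHS1, SALL2 and DNMT3B were lower in all 3 SALL4 libraries than in any control library, and ACTG2 and COL6A1 were higher.

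Across the transcriptome, 590 of 19772 tested genes were called in SALL4 siRNA cells, 2.98%. Of these, 366 were higher (1.85% of the tested genes) and 224 lower (1.13%), with a median log2 fold change over all tested genes of 0.02. In 501 of the 590 called genes the 3 SALL4 libraries lay outside the range of the 4 controls, as they did for 13.7% of all tested genes (6.82% higher and 6.83% lower). Calls were sparse among weakly expressed genes: below 0 log2 CPM 4 of 5765 tested genes were higher and 8 lower, against 98 higher and 66 lower of 1560 genes between 6 and 8 log2 CPM. The shares were 6.28% higher and 4.23% lower at that level, and 3.75% and 2.59% between 4 and 6 log2 CPM. Every list count below is to be read beside these shares and those of all tested genes, as lists of well-expressed genes are called more often. Protein-coding genes made up 536 of the called genes. The SALL4 libraries contributed unequally. SALL4 replicate 1 lay above all 4 controls for 363 of the 366 higher genes and replicate 2 for 364, but replicate 3 for 296. For the 224 lower genes the counts below all controls were 221, 220 and 213. The median log2 ratio of the higher genes to the control mean was 1.04, 0.93 and 0.58 in replicates 1, 2 and 3, and that of the lower genes -0.81, -0.84 and -0.69. These counts describe the calls and do not test them, since the same libraries made the calls. Leaving out replicate 3 gave 924 called genes, 507 of them among the 590, while leaving out replicate 1 gave 275 and replicate 2 gave 291. In all, 195 of the 590 genes (128 higher, 67 lower) were called without each of the 7 libraries in turn, and 128 (79 higher, 49 lower) under all 19 alternatives tried. Called genes below are from those 128 unless a lost call is given with them. For those, each library whose removal ended the call is named, or, where none did, another setting that ended it. BMP2 was not among the genes tested under the stricter filter and was called under the other 18 alternatives.

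**Figure D2:**
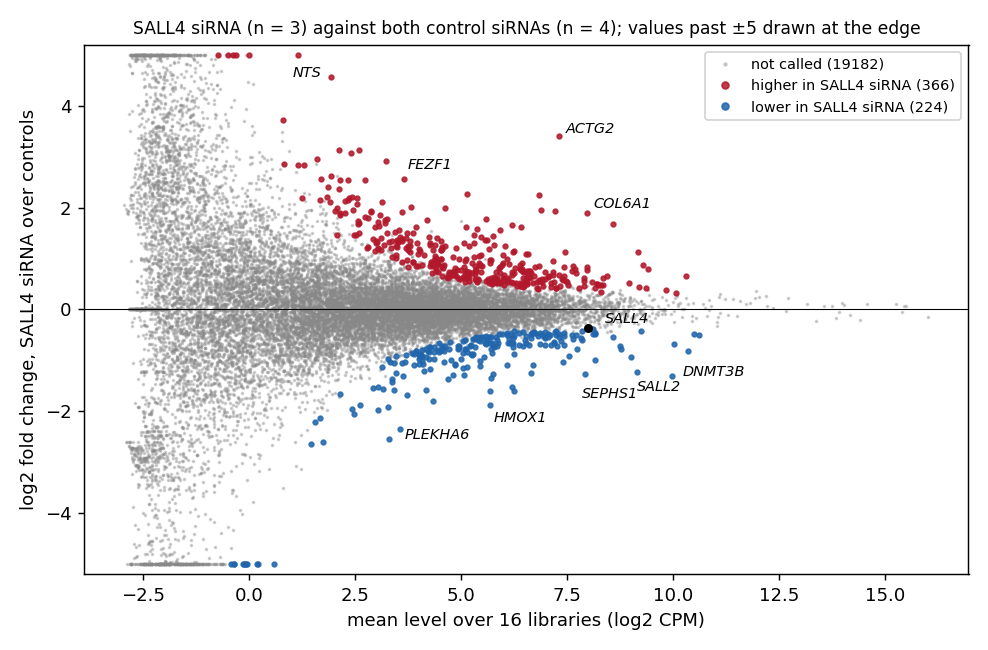
Log2 fold change of SALL4 siRNA (n = 3) over both controls (n = 4) on the vertical axis against the mean level over all 16 libraries in log2 CPM on the horizontal axis, 1 point per tested gene. The 366 higher genes are red and the 224 lower genes blue, SALL4 is the black point, and 480 genes past a log2 fold change of 5, of which 17 were called, are drawn at the edge.

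The largest change among well-expressed genes was in an actin. Actins of muscle differ from the ubiquitous beta and gamma forms, and their genes are driven by serum response factor (SRF) through CArG boxes close to the start site. ACTG2, the gamma actin of enteric smooth muscle (chromosome 2, 73892314 to 73919865, plus strand), stood at 658, 578 and 717 CPM in SALL4 siRNA cells, against 72.7 and 58.9 CPM in Luciferase cells and 69.2 and 44.6 CPM in Control cells. It rose 10.6-fold by the group means, or by 3.41 on the log2 scale (SE 0.17, adjusted p = 7.61e-16). The other muscle actins did not follow it. ACTA1, the skeletal muscle alpha actin (chromosome 1, 229431245 to 229434098, minus strand), stood at 41.0, 39.0 and 25.9 CPM in SALL4 siRNA cells, against 71.2 to 124 CPM in controls, and fell by 1.52 (SE 0.18, adjusted p = 9.23e-07). ACTA2, the vascular smooth muscle actin, stood at 15.4, 16.2 and 2.81 CPM in SALL4 siRNA cells and at 1.73 to 9.86 CPM in controls, and was not called. Its log2 fold change of 0.96 was called without Luciferase replicate 1 (1.41, adjusted p = 0.0302) or Control replicate 1 (1.83, adjusted p = 0.00706). How the authors' counting treated reads shared between the near-identical actin genes is not given in the sources used here.

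The bases just upstream of both called muscle actins are shown because both carry CArG boxes, marked in capitals, while the transcripts moved in opposite directions. Each line gives 150 bases ending at the base before the RefSeq start site (GRCh38.p14), 5′ to 3′ on the gene's strand. For ACTG2 they are chr2:73892858-73893007 on the plus strand, and for ACTA1 chr1:229434095-229434244 on the minus strand.
ACTG2: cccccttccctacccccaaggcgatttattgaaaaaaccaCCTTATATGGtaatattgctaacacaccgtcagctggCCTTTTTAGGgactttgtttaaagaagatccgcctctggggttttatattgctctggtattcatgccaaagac
ACTA1: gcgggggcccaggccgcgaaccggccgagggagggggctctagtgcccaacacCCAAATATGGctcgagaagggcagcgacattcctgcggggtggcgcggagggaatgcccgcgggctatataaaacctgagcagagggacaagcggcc
The CArG boxes begin 110 and 73 bases before the ACTG2 start and 97 bases before the ACTA1 start. A CArG box, read on both strands, was present in the 300-base windows of 1.29% of the 27305 promoters in the RefSeq table, and in 7 of the 23 contractile genes of the list below that had a promoter there. The windows of called higher genes held one in 5 of 264 genes and those of called lower genes in 4 of 159. ATATT, an AT-rich pentamer searched on both strands, was found in 12.5% of the windows of called higher genes, 10.7% of those of called lower genes and 12.0% of those of all tested genes, with a median GC content of 67.2, 65.0 and 65.0%. The single ATATT match of the ACTA1 window lies inside its CArG box. A match is a description of letters and not of binding.

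Contractile genes as a list did not move in a common direction. Of 27 smooth muscle and contractile genes, 23 were not called, 3 were lower and 1 was higher, with a median log2 fold change of -0.04. VCL, vinculin, which links integrins to actin (chromosome 10, 73995193 to 74121363, plus strand), stood at 328, 352 and 349 CPM in SALL4 siRNA cells, against 628 to 679 CPM in controls, and fell by 0.93 (SE 0.10, adjusted p = 4.06e-07). CNN1, calponin of smooth muscle, fell by 0.74, and lost its call against replicate 2 of both controls alone (adjusted p = 0.057). The abundant smooth muscle genes TAGLN, MYL9 and FLNA were not called, at -0.07, 0.07 and -0.15. Of 21 SRF targets of the actin cytoskeleton, 2 were higher and none lower. CCN1, a matricellular protein of the SRF and YAP pathways, stood at 271, 255 and 251 CPM in SALL4 siRNA cells and at 167 to 189 CPM in controls, and rose by 0.56 (SE 0.10, adjusted p = 0.00072). PXN, paxillin, an adaptor of focal adhesions chosen after its values were seen, fell by 0.51 and lost its call without SALL4 replicate 2 (adjusted p = 0.0594). AMOTL1, an angiomotin that binds YAP at junctions, fell by 1.27 (SE 0.16, adjusted p = 4.51e-06), at 23.6 to 35.6 CPM in SALL4 siRNA cells and 62.8 to 78.7 CPM in controls. LCP1, L-plastin, an actin bundler otherwise known from leukocytes, rose 3.99-fold by the group means (adjusted p = 8.85e-07), at 51.6, 57.2 and 93.1 CPM in SALL4 siRNA cells and at most 20.8 CPM in controls.

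Several accessory factors of pluripotency were lower, while the core factors were not called. Of 28 tested genes of core and primed pluripotency, 23 were not called, 4 were lower and 1 was higher, with a median log2 fold change of -0.03. DNMT3B, the de novo DNA methyltransferase of early embryonic cells (chromosome 20, 32762385 to 32809356, plus strand), stood at 397, 378 and 601 CPM in SALL4 siRNA cells, against 964 to 1340 CPM in controls. All SALL4 libraries were below all controls, replicate 3 the least so, and DNMT3B fell by 1.31 (SE 0.12, adjusted p = 1.7e-08). It was the single called gene of 15 tested genes of DNA methylation and demethylation. PRDM14, a PR domain repressor of differentiation genes, stood at 62.9, 54.9 and 50.2 CPM in SALL4 siRNA cells and at 114 to 133 CPM in controls, and fell by 1.10 (SE 0.12, adjusted p = 2.04e-07). The sialomucin gene PODXL fell by 0.48 and lost its call without SALL4 replicate 3 (adjusted p = 0.0543). The polycomb subunit JARID2 fell by 0.49 and lost its call without SALL4 replicate 1 (adjusted p = 0.0625), 2 (0.0528) or 3 (0.07). Among the core factors, SOX2 was at a log2 fold change of 0.13 and POU5F1 at 0.26, neither called. NANOG stood at 158, 143 and 76.1 CPM in SALL4 siRNA cells and at 73.1 to 98.2 CPM in controls. Replicates 1 and 2 were above the controls and replicate 3 within them, and the log2 fold change of 0.55 was not called (adjusted p = 0.0542). It was called without SALL4 replicate 3 (0.82, adjusted p = 5.88e-05), Luciferase replicate 1 (0.66, adjusted p = 0.00236) or Control replicate 1 (0.59, adjusted p = 0.0189).

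Non-coding RNAs of pluripotent cells moved in both directions: of 11 tested, 1 was higher and 2 were lower. LINC00458, a long non-coding RNA of embryonic stem cells (chromosome 13, 54115783 to 54132866, minus strand), stood at 1161, 1077 and 219 CPM in SALL4 siRNA cells, against 360, 167, 316 and 179 CPM in Luciferase 1 and 2 and Control 1 and 2. Replicates 1 and 2 exceeded every control and replicate 3 lay within their range. LINC00458 rose by 1.68 (SE 0.31, adjusted p = 0.00106), and lost its call when the 3 groups were fitted alone (adjusted p = 0.0621). LNCPRESS2, a p53-linked RNA of pluripotent cells, stood at 23.7, 20.4 and 19.5 CPM in SALL4 siRNA cells and at 42.1 to 53.9 CPM in controls, and fell by 1.11 (SE 0.17, adjusted p = 7.8e-05). ESRG, an abundant RNA of endogenous retroviral origin, fell by 0.51, a call lost without SALL4 replicate 2 (adjusted p = 0.114).

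Of 10 genes reported elsewhere as SALL4 targets, 1 was lower, none was higher and the median log2 fold change was 0.25. The lower one was MYC, at 93.4, 107 and 163 CPM in SALL4 siRNA cells and 163 to 218 CPM in controls, with a fall of 0.69 and a call lost without SALL4 replicate 1 (adjusted p = 0.0625) or 2 (0.0536). Of 15 NuRD corepressor genes, 2 were higher. The remodeller CHD3 rose by 1.35 and lost its call without SALL4 replicate 1 (adjusted p = 0.103), and the subunit MTA1 rose by 0.51 and lost its call without SALL4 replicate 1 (0.0877) or 2 (0.0823) or Luciferase replicate 2 (0.0568). KDM1A, a histone demethylase that works with NuRD and was singled out after its values were seen, stood at 38.2, 42.3 and 65.1 CPM in SALL4 siRNA cells and at 81.6 to 96.8 CPM in controls, and fell by 0.87 (SE 0.15, adjusted p = 0.000541).

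Among genes of the extracellular matrix and mesenchyme, collagen VI, vimentin and fibronectin were higher and collagen I was lower. Of 22 tested fibroblast and mesenchyme markers, 5 were higher and 1 was lower, against 1.85% higher and 1.13% lower of all tested genes, with a median log2 fold change of 0.86. Without SALL4 replicate 3 or Control replicate 1 the count of higher members was 9. COL6A1, an alpha chain of collagen VI, the beaded microfibril of connective tissue (chromosome 21, 45981737 to 46005050, plus strand), stood at 551, 440 and 610 CPM in SALL4 siRNA cells, against 121 to 167 CPM in controls. It rose by 1.89 (SE 0.15, adjusted p = 2.14e-10). COL6A2, the neighbouring gene for another chain of the same trimer (chromosome 21, 46098097 to 46132849, plus strand), stood at 175, 135 and 190 CPM in SALL4 siRNA cells, against 45.6 to 62.3 CPM in controls, and rose by 1.62 (SE 0.15, adjusted p = 1.7e-08). The order of the SALL4 libraries was the same for both chains, with replicate 3 highest. VIM, vimentin, stood at 1169, 1102 and 1037 CPM in SALL4 siRNA cells, against 757 and 640 CPM in replicate 1 and 319 and 316 CPM in replicate 2 of Luciferase and Control. It rose by 1.12 (SE 0.18, adjusted p = 0.000185), and against replicate 2 of both controls alone by 1.80. FN1, fibronectin, rose by 0.72, at 249 to 274 CPM in SALL4 siRNA cells and 145 to 171 CPM in controls. COL1A1, a chain of collagen I, went the other way, at 1250, 1069 and 479 CPM in SALL4 siRNA cells and 1534 to 1760 CPM in controls, and fell by 0.82 (SE 0.18, adjusted p = 0.00498). The COL1A1 call was lost when the 3 groups were fitted alone (adjusted p = 0.0921) and against Control alone (0.0678). The other defining fibroblast markers were low. DCN and LUM reached 0.17 and 0.34 CPM in SALL4 siRNA cells, and 0 and 0.584 CPM in controls. COL3A1 stood at 0.646, 1.55 and 0.554 CPM in SALL4 siRNA cells and at 0 to 0.412 CPM in controls. POSTN stood at 0.85, 1.67 and 0.724 CPM in SALL4 siRNA cells and at 0 to 0.481 CPM in controls. Their log2 fold changes of 4.59 and 4.92 were not called (adjusted p = 0.378 and 0.286), although all SALL4 libraries lay above the controls. The summed level of the list was 4441, 3948 and 3296 CPM in SALL4 siRNA cells and 3036 to 3688 CPM in controls, so replicate 3 lay within the control range. Whether cells of another type contributed to these changes was not tested.

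Both GPC4 and SDC2, surface proteoglycans drawn from the genes with the smallest p and not from a list, were higher. GPC4, glypican 4, a heparan sulfate proteoglycan that binds WNT and FGF ligands, stood at 929, 855 and 878 CPM in SALL4 siRNA cells and at 393 to 592 CPM in controls, and rose by 0.88 (SE 0.11, adjusted p = 4.51e-06). SDC2, syndecan 2, stood at 75.9, 90.6 and 63.2 CPM in SALL4 siRNA cells and at 22.4 to 27.9 CPM in controls, and rose by 1.61 (SE 0.16, adjusted p = 5.83e-08). Of 33 tested laminin, integrin and basement membrane genes, 4 were higher and 2 lower, with 7 higher without SALL4 replicate 3. The higher ones included ITGB5, integrin beta 5, a receptor for vitronectin, with a rise of 1.18 (SE 0.15, adjusted p = 5.08e-06), COL18A1 with one of 0.67 and LAMC1, the laminin gamma 1 chain, with one of 0.73. ITGB5 held 85.8, 86.5 and 95.8 CPM in SALL4 siRNA cells and 32.5 to 47.2 CPM in controls. The lower ones were LAMA1, laminin alpha 1, by 1.09, and ITGA6, a laminin receptor subunit, by 0.78. LAMA1 lost its call without SALL4 replicate 1 (adjusted p = 0.0501), and ITGA6 without SALL4 replicate 1 (0.13) or 2 (0.0653) or Control replicate 2 (0.0642). ADAM19, a membrane metalloprotease, stood at 150, 143 and 120 CPM in SALL4 siRNA cells and at 40.3 to 50.4 CPM in controls, and rose by 1.56 (SE 0.15, adjusted p = 1.97e-08).

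Cadherins moved in both directions, with E-cadherin lower and N-cadherin higher. Of 32 tested cadherins and protocadherins, 4 were higher and 3 lower. CDH1, E-cadherin of epithelia and pluripotent colonies (chromosome 16, 68737225 to 68835548, plus strand), stood at 145, 150 and 150 CPM in SALL4 siRNA cells, against 195 and 200 CPM in replicate 1 and 289 and 325 CPM in replicate 2 of Luciferase and Control. It fell by 0.77 (SE 0.14, adjusted p = 0.000995), and was not called against replicate 1 of both controls alone (-0.42, adjusted p = 0.17). CDH2, N-cadherin of neural and mesenchymal cells (chromosome 18, 27950966 to 28177446, minus strand), stood at 80.1, 77.7 and 52.6 CPM in SALL4 siRNA cells, against 17.0 to 42.2 CPM in controls, and rose by 1.31 (SE 0.23, adjusted p = 0.000584). Set against replicate 2 of both controls alone, the rise was 1.90. PCDH18, a protocadherin, rose by 1.77 (SE 0.19, adjusted p = 1.78e-07), at 122, 127 and 68.7 CPM in SALL4 siRNA cells and 19.1 to 44.9 CPM in controls. CDH4, R-cadherin, rose by 1.25. Of 36 genes of claudins, keratins and epithelial junctions, 7 were lower and 2 higher, against 1.13% lower and 1.85% higher of all tested genes. Their median log2 fold change was -0.35. The lower count was 3 without SALL4 replicate 2 and 4 without Luciferase replicate 2 or Control replicate 2. PLEKHA6, a protein of adherens junctions, stood at 2.07, 4.09 and 3.54 CPM in SALL4 siRNA cells and at 14.0 to 20.3 CPM in controls, and fell by 2.34 (SE 0.30, adjusted p = 3.9e-06). EPCAM, the epithelial adhesion molecule also carried by pluripotent cells, stood at 33.4, 37.5 and 40.6 CPM in SALL4 siRNA cells and at 54.9 to 71.7 CPM in controls, and fell by 0.78 (SE 0.14). CLDN7, a claudin, stood at 16.9, 17.7 and 39.2 CPM in SALL4 siRNA cells and at 42.0 to 81.5 CPM in controls, and fell by 1.34 (SE 0.27). Replicate 3 came nearest to the controls for this gene.

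CLDN1, another claudin, rose, in a pattern carried by the first 2 SALL4 libraries. It stood at 21.2, 18.5 and 6.99 CPM in SALL4 siRNA cells and at 2.30 to 4.66 CPM in controls, and its rise of 2.19 lost its call without SALL4 replicate 1 (adjusted p = 0.0916) or 2 (0.0579). The desmosomal gene PKP2 rose by 0.88 in all 3 SALL4 libraries, which held 25.3, 31.0 and 26.0 CPM against 11.2 to 18.0 CPM in controls. This call did not hold without SALL4 replicate 1 (adjusted p = 0.0657) or 2 (0.168), Luciferase replicate 1 (0.0881) or Control replicate 1 (0.0766).

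**Figure D3:**
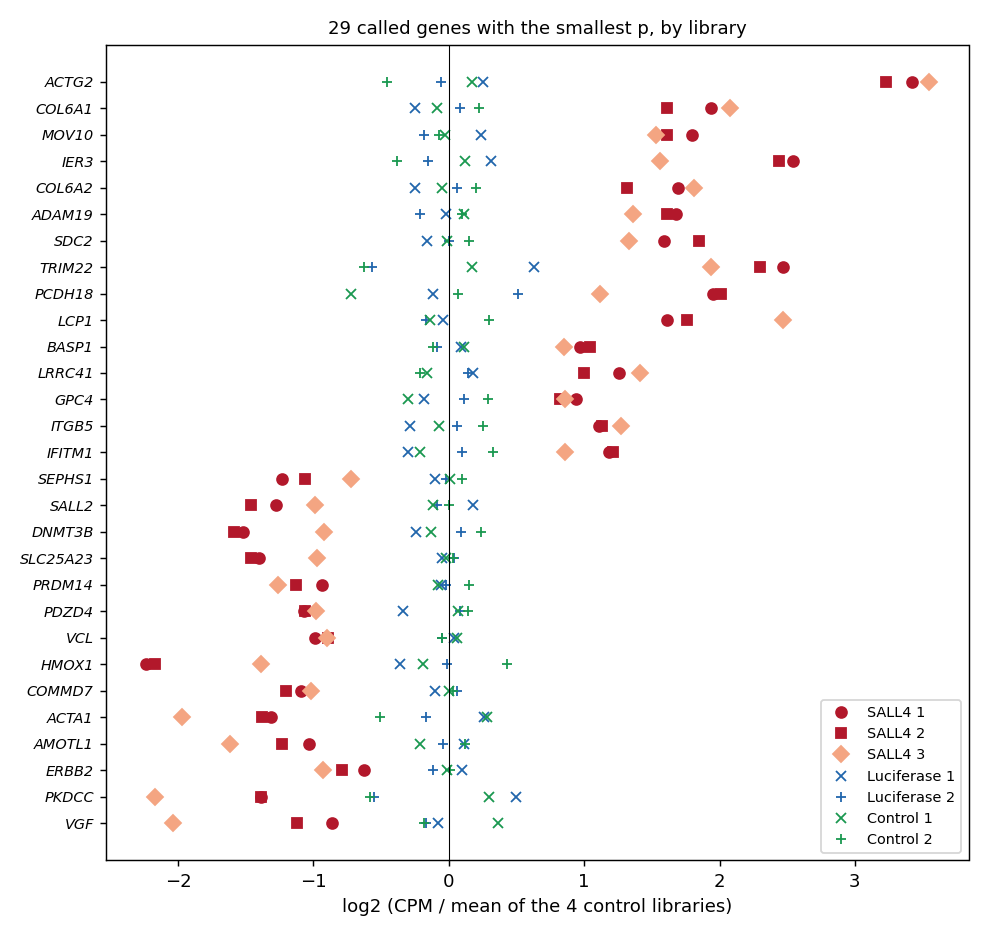
Log2 ratio of each library's CPM to the mean of the 4 control libraries (horizontal axis) for 29 genes with the smallest p among called genes of at least 4 log2 CPM whose SALL4 and control libraries did not overlap, 15 higher and 14 lower; red and orange symbols are the 3 SALL4 libraries, blue and green crosses the Luciferase and Control libraries. A processed pseudogene of CD24, also lower under this rule, is not drawn. The choice of genes sets the gap between the SALL4 libraries and the controls. Replicate 3 is the nearest to the controls for IER3, PCDH18 and DNMT3B and the farthest for ACTG2, LCP1 and VGF.

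ERBB2 and ERBB3, receptors of growth factor signalling, and ERRFI1 were lower. ERBB3 and ERRFI1 were chosen after their values were seen. ERBB2, the receptor tyrosine kinase that pairs with ERBB3, stood at 348, 313 and 283 CPM in SALL4 siRNA cells and at 498 to 578 CPM in controls, and fell by 0.78 (SE 0.10, adjusted p = 4.51e-06). ERRFI1, a feedback inhibitor of the ERBB kinases, fell by 0.70 and ERBB3 by 0.76. ERBB3 lost its call without SALL4 replicate 1 (adjusted p = 0.0907) or 2 (0.138). Of 25 genes of FGF and ERK feedback, 2 were higher and 2 lower, with 6 higher without SALL4 replicate 3 and none without SALL4 replicate 1 or 2. ETV4, an ETS factor induced by FGF, stood at 177, 155 and 194 CPM in SALL4 siRNA cells and at 255 to 285 CPM in controls, and fell by 0.60 (SE 0.11, adjusted p = 0.00133). FGFR3 rose by 0.94 and lost its call without SALL4 replicate 1 (adjusted p = 0.137) or 2 (0.0522).

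Of 37 tested genes of the WNT pathway and its targets, 5 were higher and none lower, against 1.85% higher of all tested genes, with a median log2 fold change of 0.47. The list had 9 higher members and 1 lower without SALL4 replicate 3, 8 higher without Luciferase replicate 1, and 3 higher without SALL4 replicate 2. FZD5, a frizzled receptor, stood at 43.9, 45.3 and 46.0 CPM in SALL4 siRNA cells and at 18.3 to 25.3 CPM in controls, and rose by 1.00 (SE 0.17, adjusted p = 0.000457). TCF7L2, the nuclear factor that binds beta-catenin, stood at 117, 88.1 and 146 CPM in SALL4 siRNA cells and at 48.9 to 77.3 CPM in controls, and rose by 0.91 (SE 0.18, adjusted p = 0.00196). Both were high in all 3 SALL4 libraries. APCDD1, a secreted WNT inhibitor, was not: it stood at 17.4, 18.3 and 4.64 CPM in SALL4 siRNA cells and at 2.08 to 4.36 CPM in controls, rose by 2.07, and lost its call against Control alone (adjusted p = 0.0803). WNT3, a ligand of the primitive streak, rose by 2.41 and lost its call without SALL4 replicate 1 (adjusted p = 0.117) or 2 (0.273) or Control replicate 2 (0.0707). Without Control replicate 1 the log2 fold change of WNT3 was 3.18.

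Of 23 tested genes of the NODAL and activin pathway, which maintains human pluripotency and induces endoderm, 4 were higher and none lower, although the median log2 fold change was -0.02. This count depended on the libraries: 2 members were lower beside 4 higher without SALL4 replicate 3, Luciferase replicate 1 or Control replicate 1, 1 was higher without SALL4 replicate 2, and 1 was higher and 2 were lower against replicate 2 of both controls alone. The ligand NODAL rose by 1.32, at 17.8, 21.1 and 15.6 CPM in SALL4 siRNA cells and 4.95 to 8.88 CPM in controls, and lost its call without SALL4 replicate 2 (adjusted p = 0.0746). Its secreted inhibitors LEFTY1 and LEFTY2, neighbouring and similar genes between which reads may be split, rose by 1.90 and 2.37. LEFTY1 held 8.23, 11.1 and 7.07 CPM in SALL4 siRNA cells and 1.84 to 2.96 CPM in controls, and lost its call without SALL4 replicate 2 (adjusted p = 0.0597). LEFTY2 lost its call against Luciferase alone (adjusted p = 0.067), and its log2 fold change was 3.33 without Luciferase replicate 2. In the BMP pathway 2 of 23 tested genes were higher. The ligand BMP2 stood at 10.1, 8.10 and 16.1 CPM in SALL4 siRNA cells and at 1.88 to 2.06 CPM in controls, and rose by 2.54 (SE 0.46, adjusted p = 0.000794). SMAD7, the inhibitory SMAD, rose by 0.87 and lost its call without SALL4 replicate 1 (adjusted p = 0.444) or 2 (0.0704), Luciferase replicate 2 (0.058) or Control replicate 2 (0.0516).

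In the Notch pathway 2 of 27 tested genes were higher and 2 lower. RBPJ, the DNA-binding factor of the pathway, rose by 0.62 and lost its call without SALL4 replicate 2 (adjusted p = 0.0586). HES3, a Notch-family repressor, stood at 2.18, 2.61 and 2.04 CPM in SALL4 siRNA cells and at 7.28 to 10.5 CPM in controls, and fell by 1.97 (SE 0.30, adjusted p = 0.000109). None of 12 tested Hedgehog genes was called by edgeR, with 1 at an unadjusted p under 0.05, and DESeq2 called 0 and limma-voom 1. The effector GLI1 had the smallest p there, at -0.69 (adjusted p = 0.0686), and was called lower without Luciferase replicate 1 (adjusted p = 0.00301) or Control replicate 2 (0.036).

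Some genes of neural and mesodermal lineages were called, and most had a log2 fold change above 0. Of 25 tested forebrain and neural transcription factors, 3 were higher (12%) and 1 lower (4%). Among all tested genes the shares were 1.85% higher and 1.13% lower. In that list 19 members lay above 0, and the median log2 fold change was 0.99. FEZF1, a forebrain zinc finger repressor (chromosome 7, 122301394 to 122310691, minus strand), stood at 41.6, 38.8 and 30.2 CPM in SALL4 siRNA cells, against 4.05 to 8.59 CPM in controls, and rose by 2.56 (SE 0.27, adjusted p = 1.62e-07). SOX3, a SOXB1 factor close to SOX2, stood at 40.6, 44.2 and 50.0 CPM in SALL4 siRNA cells and at 14.8 to 21.9 CPM in controls, and rose by 1.40 (SE 0.21, adjusted p = 8.1e-05). CRABP1, which binds retinoic acid in the cytosol, stood at 141, 149 and 146 CPM in SALL4 siRNA cells and at 79.3 to 92.6 CPM in controls, and rose by 0.75 (SE 0.12, adjusted p = 0.000176). It was the single called gene of 17 tested retinoic acid genes. ETS1, counted with the neural crest, rose by 1.43 (SE 0.24, adjusted p = 0.000365), the single call among 12 tested markers of that lineage. In contrast NES, nestin of neural progenitors, chosen after its values were seen, fell by 0.67 (SE 0.12, adjusted p = 0.000784), at 73.7 to 89.9 CPM in SALL4 siRNA cells and 123 to 132 CPM in controls. Of 17 tested primitive streak and mesoderm markers 2 were higher (11.8%), 14 lay above 0, and the median log2 fold change was 0.99. None of these markers was called without SALL4 replicate 1 or 2. KDR, the VEGF receptor of mesodermal progenitors, stood at 147, 140 and 56.7 CPM in SALL4 siRNA cells and at 53.8 to 69.0 CPM in controls, with replicate 3 inside the control range. It rose by 0.91 and lost its call without SALL4 replicate 1 (adjusted p = 0.12) or 2 (0.102). The summed level of that list was 187, 185 and 77.9 CPM in SALL4 siRNA cells and 71.4 to 82.7 CPM in controls, most of it from KDR. None of 18 tested endoderm, 12 cardiac, 13 germ cell or 7 HOX genes was called by edgeR, with 3, 2, 3 and 1 of them at an unadjusted p under 0.05. DESeq2 called 1, 0, 1 and 0 of them and limma-voom 1 in each list. These lists also lay mostly above 0: in the same order 14, 8, 8 and 7 members did. Their median log2 fold changes were 1.41, 0.35, 0.93 and 2.04. The summed level of the endoderm list was 40.4, 41.3 and 44.6 CPM in SALL4 siRNA cells and 24.8 to 34.3 CPM in controls. That of the HOX list was 33.7, 35.4 and 3.79 CPM in SALL4 siRNA cells and 1.44 to 16.6 CPM in controls. Of 11 tested trophoblast markers 1 was lower, KRT7, which lay under 2 CPM in SALL4 siRNA cells and lost its call without each SALL4 replicate 1 and 2 (adjusted p = 0.23 and 0.263), Luciferase replicate 1 (0.0943), Control replicate 1 (0.0529) or Control replicate 2 (0.0905). Without SALL4 replicate 3 the log2 fold change of KRT7 was -3.04.

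Targets of p53 had the highest share of genes called higher among the lists. Of 32 members, 9 were higher and none lower, against 1.85% higher of all tested genes, and the median log2 fold change was 0.65. CCNG1, cyclin G1, stood at 45.0, 37.1 and 33.9 CPM in SALL4 siRNA cells and at 18.1 CPM or less in controls, and rose by 1.22 (SE 0.18, adjusted p = 3.82e-05). PLK2, a polo-like kinase, averaged 18.7 CPM in SALL4 siRNA cells and stood at 4.64 to 7.32 CPM in controls, and rose by 1.75 (SE 0.29, adjusted p = 0.000262). In these 2 genes all 3 SALL4 libraries were above the controls. CDKN1A, the p21 inhibitor of cyclin-dependent kinases (chromosome 6, 36676460 to 36687339, plus strand), stood at 192, 178 and 31.7 CPM in SALL4 siRNA cells, against 72.4, 39.8, 57.2 and 28.9 CPM in Luciferase 1 and 2 and Control 1 and 2. Replicate 3 lay near the lowest control. CDKN1A rose by 1.45 (SE 0.31, adjusted p = 0.00515), and lost its call without SALL4 replicate 1 (adjusted p = 0.0941) or 2 (0.0714). MDM2, the ubiquitin ligase that degrades p53, rose by 0.85, at 77.0, 82.8 and 44.1 CPM in SALL4 siRNA cells and 30.2 to 44.5 CPM in controls, and lost its call without SALL4 replicate 2 (adjusted p = 0.0682). The death receptor TNFRSF10B rose by 0.97, a call lost without SALL4 replicate 2 (adjusted p = 0.0588). BAX, the pro-apoptotic BCL2 relative, rose by 0.66, a call lost without SALL4 replicate 1 (adjusted p = 0.086), and was the single called gene of 15 tested members of the BCL2 family. The summed level of the list was 1341, 1307 and 689 CPM in SALL4 siRNA cells and 549 to 763 CPM in controls. Without SALL4 replicate 3, 13 members were called higher, without SALL4 replicate 1 there were 5, and without SALL4 replicate 2 there were 4. TRIM22, counted here as a p53 target, is also in the interferon list.

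Some cell cycle inhibitors rose and a few replication genes fell. Of 24 tested cyclins and CDK inhibitors 4 were higher and none lower, but 6 were higher and 3 lower without SALL4 replicate 3, and 2 were higher without SALL4 replicate 1 or 2. The 4 were the inhibitors CDKN1A and CDKN1C, the cyclin CCNG1, and CDC25B, which is neither. CDC25B rose by 0.62, a call lost without SALL4 replicate 1 (adjusted p = 0.433) or 2 (0.233) or Luciferase replicate 2 (0.118). CDKN1C, the imprinted p57 inhibitor, stood at 11.5, 9.73 and 13.6 CPM in SALL4 siRNA cells and at 1.42 to 3.30 CPM in controls, and rose by 2.20 (SE 0.40, adjusted p = 0.000906). It lost its call against Control alone (adjusted p = 0.0621), and was the single called gene of 19 tested imprinted genes. Of 35 DNA replication genes 3 were lower and none higher, with a median log2 fold change of -0.17. MCM5, a subunit of the replicative helicase, stood at 127, 136 and 211 CPM in SALL4 siRNA cells and at 198 to 271 CPM in controls, and fell by 0.57, a call lost without SALL4 replicate 1 (adjusted p = 0.17) or 2 (0.18). POLA1, the primase-associated polymerase, fell by 0.70, lost likewise (adjusted p = 0.154 and 0.141). The summed level of the list was 1550, 1675 and 2049 CPM in SALL4 siRNA cells and 1973 to 2121 CPM in controls. Without SALL4 replicate 3, 9 replication genes were lower, without Luciferase replicate 1 there were 6, and without SALL4 replicate 1 or 2 none was called. None of 30 mitosis genes was called by edgeR, with 5 at an unadjusted p under 0.05, and DESeq2 and limma-voom called 1 each. BUB1, a spindle checkpoint kinase, had the smallest p there at -0.43 (adjusted p = 0.0621), and was called lower without Luciferase replicate 1 (0.0414) or Control replicate 1 (0.027).

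**Figure D4:**
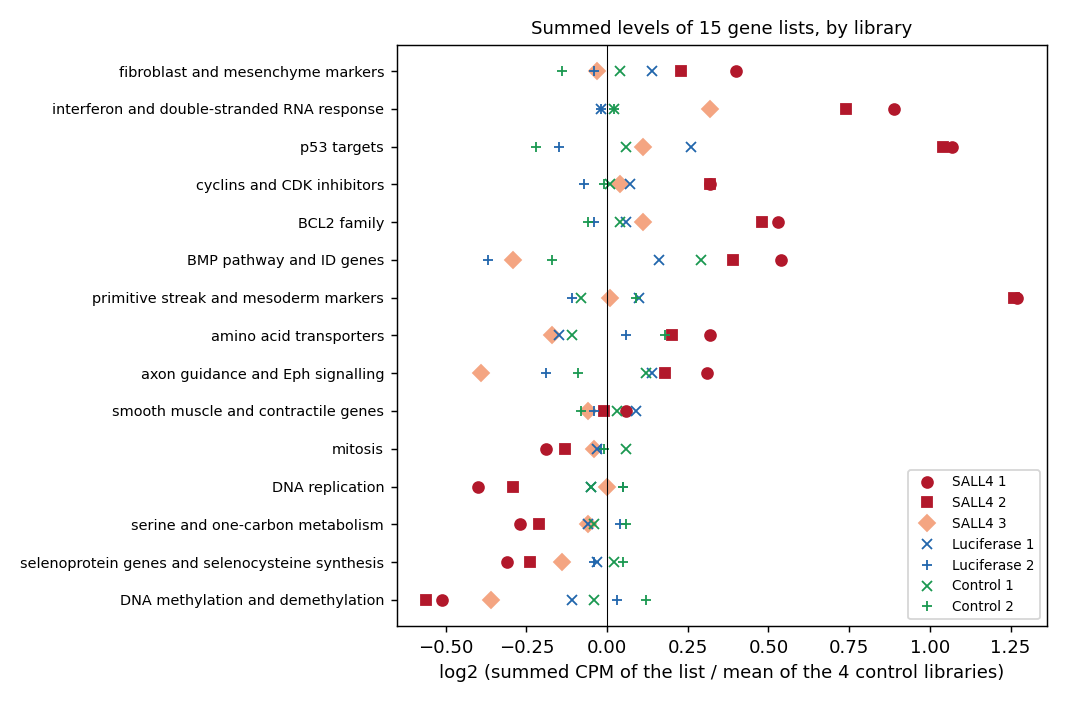
Log2 ratio of the summed CPM of 15 gene lists in each library to the mean of the 4 control libraries (horizontal axis); red and orange symbols are the 3 SALL4 libraries, blue and green crosses the controls. SALL4 replicates 1 and 2 lie together, above the controls for p53 targets (1.07 and 1.04) and below them for DNA replication (-0.40 and -0.29), where replicate 3 lies at 0.11 and 0.00; for DNA methylation genes all 3 SALL4 libraries lie below the controls, a sum to which DNMT3B, the single called member, contributed 397 to 601 CPM in SALL4 libraries and 964 to 1340 CPM in controls.

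The immediate early gene IER3, a stress-induced survival gene (chromosome 6, 30743199 to 30744554, minus strand), stood at 367, 340 and 185 CPM in SALL4 siRNA cells, against 48.4 to 78.1 CPM in controls. It rose by 2.25 (SE 0.19, adjusted p = 1.71e-09), with replicate 3 lowest of the SALL4 libraries but above every control. Of 23 immediate early genes 3 were higher and 2 lower. JUND, an AP-1 subunit, rose by 1.09 (SE 0.15, adjusted p = 2.1e-05). KLF10 fell by 0.67 and lost its call without SALL4 replicate 2 (adjusted p = 0.122). Of 37 tested potassium channels 3 were higher, among them KCNK5, a 2-pore channel, at 36.9, 31.3 and 10.5 CPM in SALL4 siRNA cells and 8.50 to 11.9 CPM in controls. Its rise of 1.36 lost its call without SALL4 replicate 1 (adjusted p = 0.134) or 2 (0.0596). Of 62 axon guidance and Eph genes 2 were higher and none lower, with 7 higher without SALL4 replicate 3 and none without SALL4 replicate 1 or 2. The receptor EPHA2 stood at 221, 176 and 67.8 CPM in SALL4 siRNA cells and at 84.8 to 108 CPM in controls, so that replicate 3 lay below every control. Its rise of 0.73 was not called by DESeq2 (adjusted p = 0.176) and lost its call without SALL4 replicate 1 (0.563) or 2 (0.247).

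Some antiviral genes rose. Of 23 tested genes of the interferon and double-stranded RNA response, 4 were higher and none lower, against 1.85% higher of all tested genes. The 4 were TRIM22 and 3 neighbouring members of the IFITM family on chromosome 11, which block viral entry and are known to be high in stem cells without interferon. The summed level of the list was 2929, 2632 and 1969 CPM in SALL4 siRNA cells and 1557 to 1600 CPM in controls. Most of that sum came from IFITM3 and IFITM2. IFITM2 held 552, 514 and 316 CPM in SALL4 siRNA cells and 242 to 358 CPM in controls. TRIM22, an antiviral ubiquitin ligase (chromosome 11, 5689689 to 5737089, plus strand), stood at 111, 98.7 and 76.5 CPM in SALL4 siRNA cells, against 31.0 and 22.6 CPM in replicate 1 and 13.5 and 12.9 CPM in replicate 2 of Luciferase and Control, and rose by 2.26 (SE 0.24, adjusted p = 1.12e-07). With replicate 2 of both controls alone as the comparison, the rise was 2.85. IFITM1 stood at 158, 162 and 126 CPM in SALL4 siRNA cells and at 56.5 to 87.3 CPM in controls, and rose by 1.09 (SE 0.14, adjusted p = 5.77e-06). IFITM3 rose by 0.66, at 1997, 1756 and 1337 CPM in SALL4 siRNA cells and 1023 to 1132 CPM in controls. IFITM2 also rose by 0.66, a call lost without SALL4 replicate 1 (adjusted p = 0.13) or 2 (0.0861). These genes are similar in sequence, and how shared reads were counted is not given in the sources used here. MOV10, an RNA helicase that binds Argonaute and restricts retroelements (chromosome 1, 112673141 to 112700746, plus strand), stood at 187, 164 and 155 CPM in SALL4 siRNA cells, against 47.4 to 63.6 CPM in controls. It rose by 1.65 (SE 0.14, adjusted p = 1.71e-09), and was the single called gene of 16 genes of the RNA interference machinery. Of 14 tested antigen presentation genes 1 was lower, TAP2, a subunit of the peptide transporter, by 1.68, a call lost when the 3 groups were fitted alone (adjusted p = 0.0915).

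Amino acid transporters moved in both directions, 5 of 30 higher and 4 lower. SLC7A8, the light chain of a large neutral amino acid exchanger, stood at 1437, 1188 and 740 CPM in SALL4 siRNA cells and at 598 to 697 CPM in controls, and rose by 0.80 (SE 0.14, adjusted p = 0.000533). SLC16A10, which carries aromatic amino acids, rose by 2.55 (SE 0.34, adjusted p = 1e-05), at 11.6, 16.2 and 19.9 CPM in SALL4 siRNA cells and 1.97 to 3.06 CPM in controls. SLC1A3, a glutamate transporter of glia (chromosome 5, 36606355 to 36688334, plus strand), stood at 44.9, 39.8 and 3.79 CPM in SALL4 siRNA cells, against 2.64 to 5.19 CPM in controls. Its rise of 2.92 (SE 0.46, adjusted p = 0.000143) was thus carried by replicates 1 and 2, with replicate 3 at the control level. SLC38A2, which takes up neutral amino acids with sodium, rose by 1.13 (SE 0.18, adjusted p = 0.00021). Among the lower ones, SLC43A1, a neutral amino acid carrier, stood at 4.35, 3.37 and 13.5 CPM in SALL4 siRNA cells and at 17.7 to 28.1 CPM in controls, and fell by 1.79. Without SALL4 replicate 3 its log2 fold change was -2.63. SLC7A1, which imports arginine, fell by 0.66 (SE 0.13, adjusted p = 0.0016). SLC1A5, a glutamine transporter, fell by 0.59 and lost its call against Luciferase alone (adjusted p = 0.0851).

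Serine and one-carbon metabolism had 2 of 23 genes lower and none higher. PCK2, the mitochondrial PEP carboxykinase, stood at 11.4, 12.6 and 15.7 CPM in SALL4 siRNA cells and at 28.9 to 38.3 CPM in controls, and fell by 1.36 (SE 0.22, adjusted p = 0.00021). PSAT1, an aminotransferase of serine synthesis, fell by 0.52, a call lost without SALL4 replicate 1 (adjusted p = 0.156) or 2 (0.0825). HMOX1, the haem oxygenase of the NRF2 response (chromosome 22, 35380361 to 35394214, plus strand), stood at 12.6, 13.2 and 22.7 CPM in SALL4 siRNA cells, against 46.2 to 80.0 CPM in controls. It fell by 1.87 (SE 0.22, adjusted p = 8.26e-07), to 27.2% of the controls. The other called NRF2 target among 20 tested, EPHX1, an epoxide hydrolase, rose by 0.82 (SE 0.15, adjusted p = 0.000763). Of 26 genes of selenoproteins and selenocysteine synthesis 2 were lower: SEPHS1, described above, and SELENOI, an ethanolamine phosphotransferase, by 0.71. SELENOI lost its call without SALL4 replicate 2 (adjusted p = 0.0811), Luciferase replicate 1 (0.0516) or Control replicate 2 (0.0808). SLC25A23, a calcium-dependent mitochondrial ATP-Mg carrier, stood at 102, 97.0 and 136 CPM in SALL4 siRNA cells and at 258 to 276 CPM in controls, and fell by 1.26 (SE 0.12, adjusted p = 2.04e-08). One gene each was called among 24 tested cholesterol synthesis genes (SC5D, higher by 0.70) and 29 lysosome and autophagy genes (SQSTM1, lower by 0.45). SC5D lost its call without SALL4 replicate 1 (adjusted p = 0.128) or 2 (0.244), Luciferase replicate 2 (0.0666) or Control replicate 1 (0.0522). SQSTM1 lost its call without SALL4 replicate 1 (adjusted p = 0.0738) or 2 (0.0861), Luciferase replicate 1 (0.117) or Control replicate 1 (0.186). None of 36 glycolysis and hypoxia genes, 14 tested metallothionein and zinc transport genes, 19 endoplasmic reticulum chaperones, 16 cytosolic heat shock genes or 13 genes of the mitochondrial genome was called by edgeR. In the same order, 4, 3, 1, 1 and 1 of them had an unadjusted p under 0.05, DESeq2 called 2, 0, 0, 0 and 0, and limma-voom 4, 2, 0, 1 and 0.

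**Figure D5:**
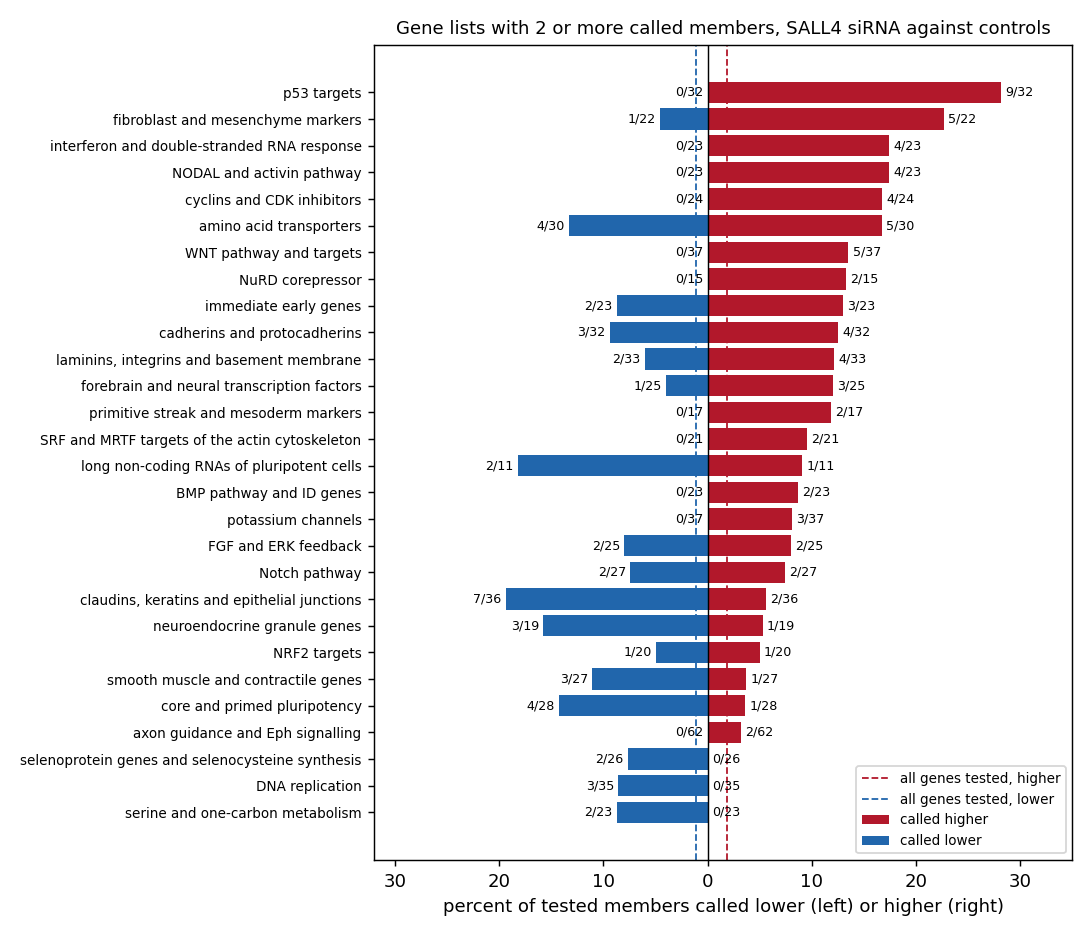
Percent of tested members called higher (red, right) or lower (blue, left) in SALL4 siRNA cells for the 28 gene lists with at least 2 called members, with the counts beside each bar; dashed lines mark the share of all tested genes, 1.85% higher and 1.13% lower. The list of p53 targets reaches farthest to the right (9 of 32), and that of claudins, keratins and epithelial junctions farthest to the left (7 of 36).

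Of 19 tested neuroendocrine granule genes 3 were lower and 1 higher, but 1 was lower and 1 higher without SALL4 replicate 2 or 3. The neuropeptide gene GAL fell by 0.70, a call lost without SALL4 replicate 2 (adjusted p = 0.13) or 3 (0.104). The granin CHGA fell by 0.73, a call lost without each SALL4 replicate 1, 2 and 3 (adjusted p = 0.148, 0.0713 and 0.0744), without Luciferase replicate 1 (0.117) or 2 (0.0568), or without Control replicate 1 (0.162). VGF, a granin-like neuropeptide precursor, stood at 62.3, 51.9 and 27.5 CPM in SALL4 siRNA cells and at 99.6 to 145 CPM in controls, and fell by 1.25 (SE 0.18, adjusted p = 5.12e-05). INSM1, a zinc finger factor of endocrine precursors, stood at 7.35, 9.05 and 29.3 CPM in SALL4 siRNA cells and at 0.447 to 3.36 CPM in controls, and rose by 3.08. The call of INSM1 was lost against Luciferase alone (adjusted p = 0.0911), and its log2 fold change was 2.20 without SALL4 replicate 3 and 3.89 without Control replicate 2. The other genes with the smallest p included BASP1, a membrane protein of growth cones, which rose by 0.96 (SE 0.12, adjusted p = 2.73e-06), and LRRC41, a cullin adaptor, which rose by 1.24. PDZD4, COMMD7 and PKDCC, a secreted tyrosine kinase, fell by 1.03, 1.10 and 1.60. PDZD4 held 92.0, 92.8 and 97.6 CPM in SALL4 siRNA cells and 152 to 213 CPM in controls. CD24, a glycosylated surface protein of stem and progenitor cells, fell by 0.68, and lost its call when the 3 groups were fitted alone (adjusted p = 0.0517). A processed pseudogene of CD24 was also called lower, but its reads cannot be told from those of its parent.

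The other 9 knockdown libraries were used to see which of these changes differed between SALL4 siRNA and siRNA against other genes. Set against the mean of the VRTN, DSCC1 and SEPHS1 groups, 1063 genes were called in SALL4 siRNA cells, 5.38% of those tested, 735 of them higher (3.72%) and 328 lower (1.66%). Set against VRTN siRNA alone, the knockdown harvested at the same time, 482 were called (2.44%), 343 higher and 139 lower. ACTG2 was higher than in the mean of the other knockdowns by 4.24 (adjusted p = 2.58e-22) and than in VRTN siRNA cells by 5.28, its level there averaging 16.7 CPM. Over all 9 other knockdown libraries ACTG2 lay between 10.6 and 62.5 CPM. DNMT3B differed from the mean of the other knockdowns by -1.29 (adjusted p = 1.47e-09) and from VRTN by -1.25 (adjusted p = 1.42e-07), with the 9 libraries between 1044 and 1169 CPM. MOV10 differed by 1.74 and 1.85, HMOX1 by -1.86 and -1.51, FEZF1 by 2.46 and 2.35, and SALL2 by -0.93 and -0.86, all called in both. COL6A1 was higher by 1.40 and 1.27, although its level also varied among the other knockdowns, from 178 to 306 CPM.

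For CDH2, CDH1, GPC4, FN1, ETV4 and FZD5, among others, the difference from VRTN siRNA cells was not called, while for SEPHS1 and CDKN1A it was. CDH2 was higher than in the mean of the other knockdowns by 1.26 (adjusted p = 3.62e-05) but stood only 0.20 from VRTN (adjusted p = 0.869), where it averaged 61.2 CPM. CDH1 differed from VRTN by -0.05 (adjusted p = 0.982), GPC4 by 0.24 (adjusted p = 0.411), FN1 by -0.17 (adjusted p = 0.641) and ETV4 by -0.02 (adjusted p = 0.999). FZD5, higher than in controls, stood at -0.34 against VRTN (adjusted p = 0.464) and at 0.42 against the mean of the other knockdowns (adjusted p = 0.0909). SEPHS1 differed from VRTN siRNA cells by -0.78 (adjusted p = 0.000779). CDKN1A was higher than in VRTN siRNA cells by 2.26 (adjusted p = 9.78e-05). It was higher than in the mean of the other knockdowns by 2.20 (adjusted p = 3.03e-07), whose libraries lay between 21.0 and 35.6 CPM, below SALL4 replicates 1 and 2 and around replicate 3.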

How the data were processed

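Libraries were made from poly(A)-selected RNA (Lexogen SENSE) and sequenced single-end at 80 bp, per the labels. The deposited values are raw counts per Ensembl gene, made by the authors with STAR 2.4.0.1 and HTSeq 0.9.1 on GRCh38, per the submitters' processing notes. The strand setting, the annotation release and the treatment of shared reads are not given in the sources used here. Of 60675 identifiers 33486 had no count in any library, and 3620 stayed unnamed. Positions are from GENCODE 29.

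All 16 libraries were fitted as 6 groups with edgeR 4.0.16 (R 4.3.3): filterByExpr, which kept 19772 genes, TMM scaling and the quasi-likelihood test, with SALL4 set against the mean of Luciferase and Control and a Benjamini-Hochberg adjusted p under 0.05 as a call. The common dispersion was 0.347. Each SE was taken as the absolute value of the log2 fold change divided by the root of F. A floor of 3 counts was 0.105 to 0.161 CPM and covers counting error only, as reads carry no molecular identifiers. The fit was checked on simulated data.

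Named genes are the 4 siRNA targets, 15 higher and 15 lower called genes of at least 4 log2 CPM with the smallest p and no overlap of libraries, and up to 4 called members a direction from 51 lists, or the 2 with the smallest p where none was called. Not every gene so selected is printed, some results are not reported here, and NES, KDM1A, ERBB3, ERRFI1, PXN, CD24, ACTA2, TAGLN, MYL9, FLNA, SALL1, SALL3, MDM2, the core pluripotency factors and all genes of the closing section were chosen after their values were seen. The comparison, lists and rules were chosen with earlier results of these data known. Alternatives were DESeq2 size factors or upper quartile scaling, no or a stricter filter, a replicate block, only the groups compared, DESeq2 1.42.0, limma-voom 3.58.1 with quality weights, subsets of the controls, and leaving out each library. A control group so reduced to 1 library was assumed to vary like the others. Promoter windows are from RefSeq.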

Additional observations from a re-analysis of the deposited data

How the results depend on the processing

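The counts of SALL4 against controls, 366 higher and 224 lower, moved with both the libraries and the test. Leaving out 1 library at a time gave 164 to 586 higher and 92 to 338 lower genes, the most without SALL4 replicate 3. Against Luciferase alone there were 141 higher and 95 lower, against Control alone 163 and 117, and against replicate 1 of both controls alone 219 and 123. limma-voom with quality weights called 801 higher and 490 lower, DESeq2 348 lower, and the fit of only the groups compared 100 lower. No gene of the 590 changed sign under any of the 19 alternatives that tested it; the stricter filter tested 530 of them. In SALL4 against the other knockdowns, 735 higher and 328 lower genes became 285 to 1107 and 100 to 547 when 1 library was left out. limma-voom called 1434 and 622 there, DESeq2 501 lower, and VRTN alone 343 higher and 139 lower. Of distinct list members, 73 were higher and 48 lower: 131 and 80 by limma-voom, 40 and 26 against Luciferase alone, 46 higher against Control alone, 28 lower with only the groups compared, and 43 to 112 higher and 26 to 66 lower with 1 library left out.

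The SALL4 transcript (-0.36, adjusted p = 0.0562) was called under the stricter filter (-0.36, adjusted p = 0.0265), the replicate block (-0.38, adjusted p = 0.0365), DESeq2 (-0.35, adjusted p = 0.00788), limma-voom (-0.38, adjusted p = 0.00563) and replicate 2 of both controls alone (-0.45, adjusted p = 0.0444), and lay between -0.44 and -0.28 with 1 library left out. With the replicate block 820 genes were called. Same-numbered libraries of the groups compared correlated in their deviations from the group mean at -0.33 to 0.37, with 4 of 6 pairs above 0.1. Differently numbered ones correlated at -0.45 to 0.45, with 4 of 10 pairs above 0.1. The 2 libraries of a control group deviate in mirror image, so these values cannot decide whether the numbers pair the samples. The main fit did not use the numbers. Among named genes, the sign turned only in uncalled values near 0. VRTN stood at -0.00 with the block, -0.01 against replicate 2 of both controls and -0.04 to 0.07 with 1 library left out. LIN28A stood at -0.01 and TAGLN at 0.16 against replicate 2 of both controls, and SALL1 at -0.07 and MYL9 at -0.10 against replicate 1. With 1 library left out TAGLN ranged over -0.18 to 0.06 and MYL9 over -0.10 to 0.27. The cause of these differences was not tested. Calls were sparse below 0 log2 CPM, so a missing call there does not show that a gene did not change.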

Other observations

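Some further genes, chosen after their values were seen, were called and belong to no list above. ANXA2 and S100A10, the subunits of a membrane complex that binds plasminogen, were both higher. ANXA2 stood at 124, 132 and 148 CPM in SALL4 siRNA cells, against 55.0 to 90.8 CPM in controls (log2 fold change 0.80, SE 0.14, adjusted p = 0.000542). S100A10 stood at 134, 146 and 169 CPM in SALL4 siRNA cells, against 83.1 to 94.7 CPM in controls (0.74, SE 0.11, adjusted p = 8.97e-05). S100A10 was not called against the mean of the other knockdowns (0.14, adjusted p = 0.497), while ANXA2 was (0.84, adjusted p = 1.13e-05). CAV1, the coat protein of caveolae, rose by 1.24 (SE 0.25, adjusted p = 0.00287), at 21.7, 24.9 and 22.2 CPM in SALL4 siRNA cells and 8.12 to 11.1 CPM in controls. RUNX1T1, a corepressor, rose by 1.70 (SE 0.27, adjusted p = 0.000162), at 17.5 to 25.8 CPM in SALL4 siRNA cells and 5.38 to 7.52 CPM in controls. NTS, the neurotensin precursor, stood at 11.7, 21.3 and 8.44 CPM in SALL4 siRNA cells, against 0.306 to 1.24 CPM in controls, and rose by 4.56 (SE 0.59, adjusted p = 5.8e-06), and was not among the genes tested under the stricter filter. MYCN, a relative of MYC, fell by 0.55 (SE 0.12, adjusted p = 0.0045), at 113 to 140 CPM in SALL4 siRNA cells and 164 to 206 CPM in controls, and lost its call against replicate 2 of both controls alone (adjusted p = 0.0813).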
